A study of Mus musculus with 8 samples.

Results

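Metallothioneins and the genes that handle zinc were followed across 4 mouse pro-B cell lines, as 5 genes among the 23929 gene symbols measured: Mt1, Mt2, Mtf1, Slc30a1 and Slc39a10. The set was selected on measured values: Mt1 and Mt2 were taken because both were listed at 0 in the wild-type line and stood high in the Eµ-deleted line, and the other members were added as zinc regulators and transporters. All 5 were found in every library, and all 5 passed the filter on low values (FPKM reaching 1 in 2 libraries or more), Mt1 and Mt2 through the mutant lines alone. Mt2 passed without the line named CBE-/- (1) below, where it stayed under 1 FPKM. FPKM is the number of fragments scaled by transcript length and by library size, so levels of different genes can be set side by side on it.

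The study asked how enhancer and insulator sequences act on the immunoglobulin heavy chain (IgH) locus, which lies on a different chromosome from all 5 genes. Its RNA libraries came from the Eµ-/- line, labelled E<mu>-/- (the intronic IgH enhancer Eµ is deleted), the CBE-/- (2) and CBE-/- (1) lines, both labelled IGCR1-/- (CBE stands for the CTCF-binding elements of this insulator, which separates the V from the D segments), and the WT line. All 4 were untreated pro-B cell lines of strain 129SV from bone marrow, with 2 libraries each. Each genotype was carried by 1 line, or 1 line for each of the 2 CBE-/- names, so genotype and cell line cannot be told apart. The labels do not tie the paired libraries to independent cultures, and p-values here reflect only library-to-library spread, possibly technical. The deposited intervals implied 31.3 to 49.5 M reads in a library.

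Metallothioneins are small cysteine-rich proteins that bind zinc and copper and buffer free metal in the cytosol. Their genes are switched on by MTF1, a zinc finger transcription factor that binds metal response elements in promoters when cytosolic zinc rises, and they also respond to cadmium, oxidants and glucocorticoids. MTF1 likewise drives Slc30a1, whose product ZnT1 pumps zinc out across the plasma membrane, while it represses Slc39a10, whose product ZIP10 carries zinc in and is needed for B cell survival and antigen receptor signalling in mice.

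The promoters of the 3 genes known as targets that MTF1 activates are shown because their metal response elements are what the factor binds. The windows are RefSeq sequences of build GRCm38.p6, 300 bases each, ending shortly after the annotated start of the gene. They run along the plus strand at chr8:94178839-94179138 for Mt1, chr8:94172368-94172667 for Mt2 and chr1:191906531-191906830 for Slc30a1. Capitals mark the metal response element core, read as TGCACNC or TGCGCNC on either strand, so that a core on the other strand appears as its reverse complement.
Mt1: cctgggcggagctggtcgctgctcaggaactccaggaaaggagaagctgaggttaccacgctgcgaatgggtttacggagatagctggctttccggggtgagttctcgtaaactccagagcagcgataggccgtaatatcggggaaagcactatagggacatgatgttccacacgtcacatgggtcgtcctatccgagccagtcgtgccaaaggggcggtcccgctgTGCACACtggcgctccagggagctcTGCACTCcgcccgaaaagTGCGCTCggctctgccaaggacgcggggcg
Mt2: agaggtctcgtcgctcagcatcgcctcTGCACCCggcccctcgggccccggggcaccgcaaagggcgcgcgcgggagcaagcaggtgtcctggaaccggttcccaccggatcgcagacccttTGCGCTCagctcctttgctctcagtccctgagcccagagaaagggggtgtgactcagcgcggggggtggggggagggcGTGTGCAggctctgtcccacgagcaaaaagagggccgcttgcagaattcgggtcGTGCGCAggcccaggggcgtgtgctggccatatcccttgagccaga
Slc30a1: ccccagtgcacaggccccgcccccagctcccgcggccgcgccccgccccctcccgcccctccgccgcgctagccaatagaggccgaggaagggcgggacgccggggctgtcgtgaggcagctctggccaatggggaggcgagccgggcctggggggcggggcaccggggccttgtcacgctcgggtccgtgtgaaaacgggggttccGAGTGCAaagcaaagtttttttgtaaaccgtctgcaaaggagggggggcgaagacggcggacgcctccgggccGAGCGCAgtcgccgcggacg
The Mt1 window held 3 cores, all on the strand of the gene and all close to the start site. The Mt2 window held 4, with 2 on each strand, and Slc30a1 held 2, both on the other strand. None was found in the Mtf1 window or in the 2 windows listed for Slc39a10. Of 32851 mouse promoter windows of the same length, 25.7% held at least 1 core and 7.11% held 2 or more. The core of the antioxidant response element, TGACNNNGC, was found once in the windows of Mt2 and Slc30a1 and in 12.4% of all windows, and it overlapped no metal response element core in them. These matches describe letters in a window and say nothing of binding in these cells.

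**Figure D1:**
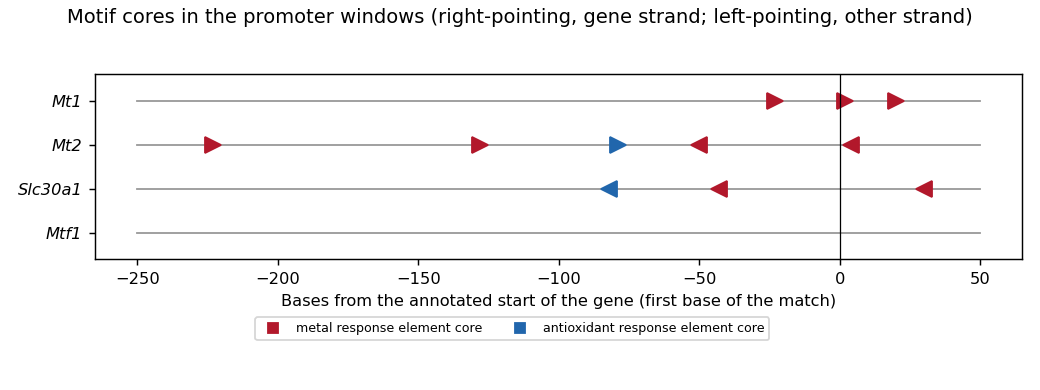
Positions of motif cores in the promoter windows of 4 genes, in bases from the annotated start (0), from RefSeq sequence of GRCm38.p6. Mt1 holds 3 metal response element cores, Mt2 holds 4, Slc30a1 holds 2 and Mtf1 holds none. Slc39a10, with none in either window, is not drawn.

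Mt1 was the most abundant of the 5 genes in the Eµ-/- and CBE-/- (2) lines. It had 123.8 and 139.3 FPKM in the Eµ-/- line, 15.3 and 13.8 in CBE-/- (2), 4.17 and 5.81 in CBE-/- (1), and was listed at 0 in both WT libraries. The lines therefore stood in the order Eµ-/-, CBE-/- (2), CBE-/- (1) and WT, and no library of one overlapped the next. In bulk RNA, more expressing cells and more RNA in each cell cannot be told apart. In the Eµ-/- libraries Mt1 ranked 682 and 498 from the top of all entries, above 97.2% and 97.9% of them. The reads behind these values numbered about 2504 and 2676 in Eµ-/-, 287 and 284 in CBE-/- (2), and 107 and 104 in CBE-/- (1). A value of 3 reads would have been 0.0984 and 0.153 FPKM in the WT libraries, a limit that covers counting error only. For the WT zeros, an absence of reads and an estimate set to 0 cannot be told apart.

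Mt2, which encodes a closely related metal-binding protein, stood in the same order at lower levels. It had 38.8 and 49.5 FPKM in Eµ-/-, 1.91 and 3.19 in CBE-/- (2), 0.2996 and 0.5313 in CBE-/- (1), and was again listed at 0 in both WT libraries. The groups did not overlap, but the CBE-/- (1) values rested on about 8 and 9.6 reads, near the 3-read values of 0.115 and 0.162 FPKM there. The 2 metallothioneins together reached 162.6 and 188.8 FPKM in Eµ-/-, 17.2 and 17.0 in CBE-/- (2), and 4.47 and 6.34 in CBE-/- (1). As line means, Mt1 was 131.5 ± 10.9 FPKM in Eµ-/-, 14.6 ± 1.04 in CBE-/- (2) and 4.99 ± 1.16 in CBE-/- (1) (SD, n = 2 each). The Mt1 mean in Eµ-/- was 9.03 times that in CBE-/- (2) and 26.4 times that in CBE-/- (1), and for Mt2 the ratios were 17.3 and 106.3. These contrasts involve the lines that chose the genes and are given as values with no test, and no ratio was taken against WT. Of 1317 Mt1 and 529 Mt2 windows of 75 bases, the read length, none was shared with a transcript of another gene, so reads that match exactly can be told apart between the 2 genes.

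**Figure D2:**
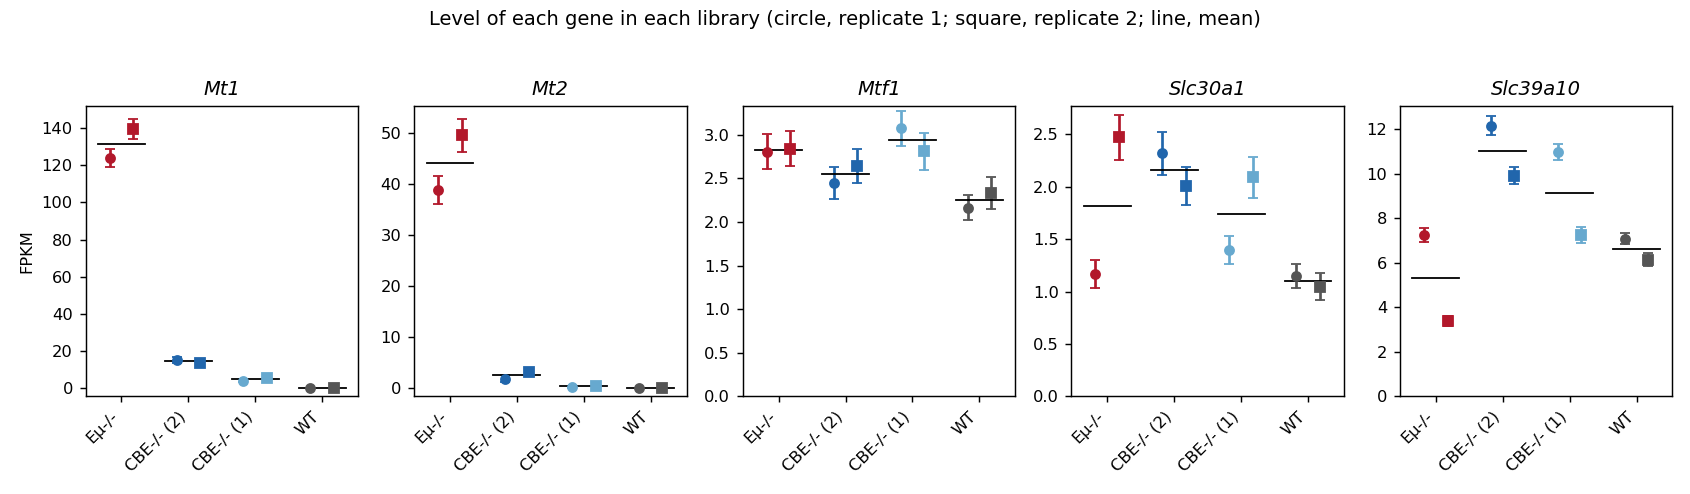
FPKM of the 5 genes in each library, grouped by line, with the deposited interval of each value as the bar and the mean of the 2 libraries as the line. Mt1 and Mt2 step down over the 4 lines to 0 in WT, while over the 8 libraries Mtf1 spans 2.17 to 3.07 FPKM, Slc30a1 1.05 to 2.47 and Slc39a10 3.37 to 12.2.

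The comparison of the 2 CBE-/- lines, which carry the same genotype label, was the one difference of Mt1 and Mt2 that their choice did not use. Mt1 was higher in CBE-/- (2) than in CBE-/- (1), with line means 2.92-fold apart and a difference of 1.39 ± 0.15 (SE) in log2(FPKM + 1), 95% interval 1.03 to 1.74 and adjusted p of 0.00204 in limma. Mt2 was higher too, with means of 2.55 ± 0.906 in CBE-/- (2) and 0.415 ± 0.164 FPKM in CBE-/- (1) (SD, n = 2 each) and a difference of 1.31 ± 0.20 (SE), 95% interval 0.83 to 1.79 and adjusted p of 0.00936. So 2 of the 5 members were called between these lines, both higher, where 10.2% of the 10479 genes tested were called, 5.17% higher and 5.03% lower. The fit's spread was shared by all 4 lines, including the WT zeros and the Eµ-/- values that chose the genes. The WT zeros add no spread, so the adjusted p of this fit is not free of that choice. Mt2 also passed the filter here only through Eµ-/- and CBE-/- (2), where it was higher. With only the 4 CBE-/- libraries fitted, the adjusted p in limma was 0.0167 for Mt1 and 0.0361 for Mt2. In that fit the filter was applied to these libraries alone. Mt1 passed it in both lines, but Mt2 passed only through CBE-/- (2), the line where it was higher. The Mt2 value of that fit is therefore no independent check. The Mt1 call held in all 8 fits that each left out 1 library. The Mt2 call was lost without CBE-/- (1) replicate 1 (adjusted p = 0.0587) and without CBE-/- (2) replicate 2 (adjusted p = 0.0643), and also with a pseudocount of 5 in place of 1 (adjusted p = 0.0587).

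Mt1 over Mt2 is given as a description with no test, since Eµ-/- values chose the genes. It was 3.19 and 2.81 in the Eµ-/- libraries, with 95% counting intervals of 2.94 to 3.45 and 2.62 to 3.03. In CBE-/- (2) it was 8.001 (5.70 to 11.2) and 4.33 (3.32 to 5.65), and in CBE-/- (1) it was 13.9 (6.79 to 28.6) and 10.9 (5.64 to 21.2). The intervals cover counting error only, and those of the 2 CBE-/- (2) libraries did not overlap, so libraries of 1 line differed by more than counting error. The WT libraries give no ratio.

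**Figure D3:**
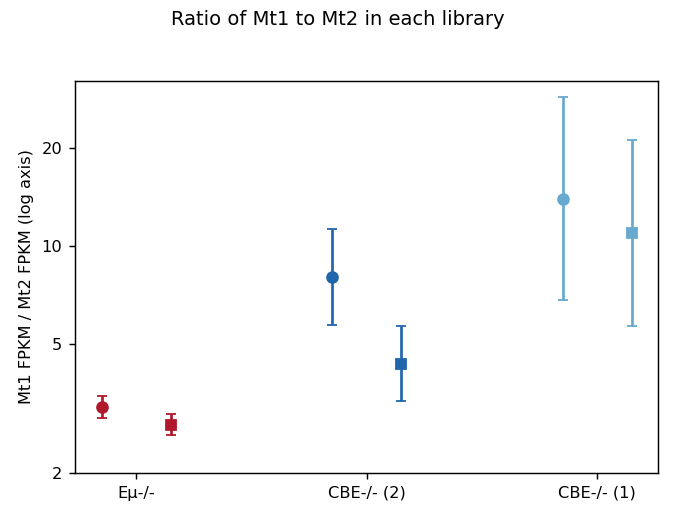
Ratio of Mt1 to Mt2 FPKM in each library of the 3 mutant lines (circle, replicate 1, and square, replicate 2) on a log axis, with 95% counting intervals. The Eµ-/- libraries sit at 3.19 and 2.81, the CBE-/- (2) libraries at 8.001 and 4.33, and the CBE-/- (1) libraries at 13.9 and 10.9.

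In the coordinates of the files (mm9), Mt1 lies at chr8:96702988-96704227 and Mt2 at chr8:96696517-96697467, beside the other metallothionein genes. Mt3, the form known from brain, had 0.3502 and 0.2107 FPKM in Eµ-/- and was listed at 0 in the other 6 libraries. Mt4, known from stratified epithelium, was listed at 0 in all 8. Both stayed under the filter and were not tested. The other neighbours within 100 kb were Nup93, a nuclear pore gene 34273 bases away, and Bbs2, a gene of the cilium-trafficking BBSome 73806 bases away. Nup93 had 51.0 and 33.3 FPKM in Eµ-/-, 48.1 and 37.9 in CBE-/- (2), 54.1 and 36.9 in CBE-/- (1), and 44.6 and 37.6 in WT. Its groups overlapped, and it was called in none of the 5 contrasts (adjusted p of 0.793 to 0.986). Bbs2 was lower in the mutant lines, at 1.38 and 1.28 FPKM in Eµ-/-, 0.965 and 0.769 in CBE-/- (2), 1.22 and 1.14 in CBE-/- (1), and 2.06 and 2.27 in WT. Its log2 difference from WT was -0.76 in CBE-/- (2) (adjusted p = 0.00206), a call that held in every fit without 1 library. In CBE-/- (1) it was -0.54 (adjusted p = 0.00999), lost without WT replicate 1 or 2 (0.0574 and 0.106). In Eµ-/- it was -0.45 (adjusted p = 0.0201), lost without WT replicate 1 (0.0937), WT replicate 2 (0.154) or Eµ-/- replicate 2 (0.0737), and with only the libraries compared (0.0702).

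Mtf1, the zinc sensor that switches metallothionein genes on, lies at chr4:124479792-124527044 (mm9). It had 2.81 and 2.84 FPKM in Eµ-/-, 2.45 and 2.64 in CBE-/- (2), 3.07 and 2.81 in CBE-/- (1), and 2.17 and 2.33 in WT. Every mutant library was above both WT libraries, by small steps, and the Eµ-/- and CBE-/- (1) libraries overlapped. The share of all genes with every mutant library above WT is not given here. The line means were 1.26 times WT in Eµ-/-, 1.13 times in CBE-/- (2) and 1.31 times in CBE-/- (1). None of the tested differences was called: CBE-/- (1) against WT gave 0.28 ± 0.09 (SE) in log2(FPKM + 1), 95% interval 0.06 to 0.50 and adjusted p of 0.0811. CBE-/- (2) against WT gave 0.13 (-0.09 to 0.34), CBE-/- (2) against CBE-/- (1) gave -0.15 (-0.37 to 0.07), and Eµ-/- against the mean of the CBE-/- lines gave 0.03 (-0.16 to 0.22), with adjusted p of 0.404, 0.393 and 0.815. The Eµ-/- line against WT gave a difference of 0.24, as a value with no test. Mtf1 averaged 2.83 ± 0.0256 FPKM in Eµ-/- and 2.55 ± 0.137 in CBE-/- (2) (SD, n = 2 each). Its averages were 2.94 ± 0.186 in CBE-/- (1) and 2.25 ± 0.118 in WT. The relation of these levels to the metallothionein order was not tested.

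Slc30a1, the zinc exporter ZnT1 and a known MTF1 target, lies at chr1:193730659-193737126 (mm9). It had 1.17 and 2.47 FPKM in Eµ-/-, 2.32 and 2.01 in CBE-/- (2), 1.40 and 2.09 in CBE-/- (1), and 1.15 and 1.05 in WT. The mutant lines overlapped each other, and all 6 of their libraries were above WT, Eµ-/- replicate 1 by the least. How many of all genes share that order is not given here. Line means were 1.82 ± 0.919 in Eµ-/-, 2.16 ± 0.219 in CBE-/- (2), 1.74 ± 0.488 in CBE-/- (1) and 1.10 ± 0.0703 in WT (SD, n = 2 each). The 2 libraries of Eµ-/- differed 2.11-fold and those of CBE-/- (1) 1.49-fold, with replicate 2 higher and deposited intervals that did not overlap. Against WT the log2 difference was 0.59 ± 0.23 (SE) in CBE-/- (2), 95% interval 0.04 to 1.14 and adjusted p of 0.132, and 0.38 (-0.17 to 0.93) in CBE-/- (1), adjusted p of 0.315. The CBE-/- (2) difference passed the threshold without Eµ-/- replicate 1 (adjusted p = 0.0345) or replicate 2 (0.0349). CBE-/- (2) against CBE-/- (1) gave 0.21 (-0.33 to 0.76) and Eµ-/- against the CBE-/- mean gave -0.10 (-0.57 to 0.38), with adjusted p of 0.669 and 0.788. Without Eµ-/- replicate 1, the last of these turned to 0.24 (adjusted p = 0.307). Eµ-/- against WT gave 0.39 with no test.

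Slc39a10, the zinc importer ZIP10, lies at chr1:46864388-46910354 (mm9) and ran in another order. It had 7.24 and 3.37 FPKM in Eµ-/-, 12.2 and 9.92 in CBE-/- (2), 10.99 and 7.25 in CBE-/- (1), and 7.09 and 6.14 in WT. The CBE-/- libraries were all above WT, and Eµ-/- lay below all 4 CBE-/- libraries (the nearest 2 at 7.243 and 7.249) and overlapped WT. Replicate 1 was higher in all 4 lines, by 2.15-fold in Eµ-/-, 1.23-fold in CBE-/- (2), 1.52-fold in CBE-/- (1) and 1.15-fold in WT. Eµ-/- against the mean of the CBE-/- lines gave -0.86 ± 0.27 (SE) in log2(FPKM + 1), 95% interval -1.52 to -0.21, adjusted p = 0.0967. In the fit with the replicate number as a block, the same difference was called (adjusted p = 0.0131), and it was called without Eµ-/- replicate 1 as well (-1.32, adjusted p = 0.0179), while without Eµ-/- replicate 2 it was -0.41 (adjusted p = 0.378). CBE-/- (2) against WT gave 0.66 (-0.10 to 1.41) with adjusted p of 0.212, and 0.0394 with the block. CBE-/- (1) against WT gave 0.39 (-0.37 to 1.14) and CBE-/- (2) against CBE-/- (1) gave 0.27 (-0.48 to 1.02), with adjusted p of 0.451 and 0.703. Without CBE-/- (1) replicate 2 the last of these was -0.0005. Eµ-/- against WT gave -0.34, as a value with no test, and was 0.12 without Eµ-/- replicate 2.

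In counts, 0 of the 3 members tested were called in CBE-/- (2) against WT, in CBE-/- (1) against WT and in Eµ-/- against the CBE-/- mean, where limma called 18.7%, 19.4% and 12.4% of all genes tested. At an unadjusted p under 0.05 it was 1 of 3 in each. With the replicate block, 1 was called in CBE-/- (2) against WT, 0 in CBE-/- (1) against WT and 1 in Eµ-/- against the CBE-/- mean, with 28.8%, 30.0% and 22.2% of all genes. Between the CBE-/- lines it called the same 2 members, with 16.6% of all genes.

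**Figure D4:**
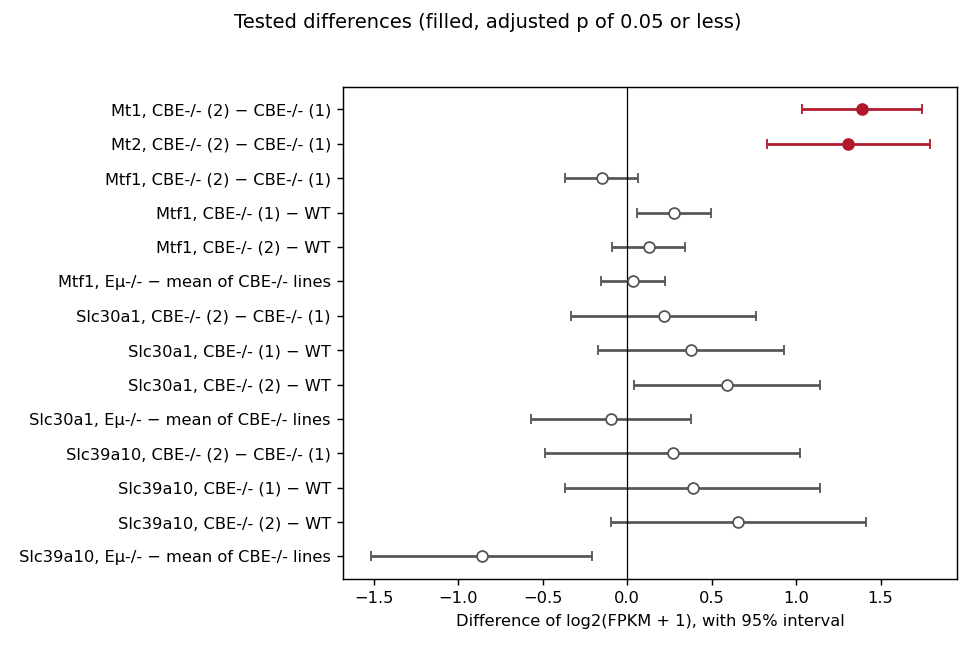
Tested differences of the 5 genes in log2(FPKM + 1), with 95% intervals (filled points, adjusted p of 0.05 or less). Mt1 and Mt2 between the CBE-/- lines, at 1.39 and 1.31, are the called ones, and the Slc39a10 difference between Eµ-/- and the CBE-/- lines, at -0.86, has an interval below 0 without passing the adjusted threshold.

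Beyond the members, 5 further genes described as MTF1-responsive in mouse cells were all expressed: Gclc (glutathione synthesis), Selenoh (a selenoprotein, under its older name 2700094K13Rik in the files), Ndrg1 (a stress-responsive gene), Csrp1 (a LIM-domain protein) and Pgf (placental growth factor). In Eµ-/- against WT, where 21.8% of all genes were called (11.3% higher and 10.4% lower), 3 of the 5 were higher and 0 lower, with a median log2 difference of 0.60 against 0.01 over all genes tested. In Eµ-/- against the CBE-/- mean (5.16% of all genes higher, 7.25% lower) 3 were higher and 0 lower. In CBE-/- (2) against WT (10.5% higher, 8.19% lower) 1 was higher, in CBE-/- (1) against WT (10.9% higher, 8.54% lower) 2 were higher, and between the CBE-/- lines 1 was lower. With the replicate block, 4 were higher in Eµ-/- against WT (34.0% of all genes called), and 1 was higher and 1 lower between the CBE-/- lines.

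Pgf had 20.2 and 27.5 FPKM in Eµ-/-, 3.95 and 2.91 in CBE-/- (2), 19.2 and 15.0 in CBE-/- (1), and 2.45 and 0.533 in WT. Pgf was therefore high in Eµ-/- and CBE-/- (1) and lowest in WT, and its relation to metallothionein levels was not tested. It rose by 3.42 in Eµ-/- (adjusted p = 0.00125) and by 2.97 in CBE-/- (1) (adjusted p = 0.00232) against WT in log2(FPKM + 1), and both calls held in all 8 fits without 1 library. Its fall of -2.03 in CBE-/- (2) against CBE-/- (1) (adjusted p = 0.0188) was lost without any one of the 4 CBE-/- libraries (0.0576 to 0.142). Ndrg1 had 8.74 and 12.9 FPKM in Eµ-/-, 5.19 and 5.77 in CBE-/- (2), 3.10 and 4.20 in CBE-/- (1), and 4.35 and 4.77 in WT. The Eµ-/- libraries stood above all others, by 1.09 over the CBE-/- mean in log2(FPKM + 1) (adjusted p = 0.00778, held in all 8 fits without 1 library). The Ndrg1 difference from WT in Eµ-/- was 1.07 (adjusted p = 0.0107), lost without WT replicate 1 (0.0767) or 2 (0.0624). Gclc had 46.7 and 49.0 FPKM in Eµ-/-, 37.5 and 35.2 in CBE-/- (2), 39.8 and 33.6 in CBE-/- (1), and 30.4 and 31.9 in WT. Its difference between Eµ-/- and WT was 0.60 (adjusted p = 0.00942), lost without WT replicate 1 (0.0822) or 2 (0.0646). Against the CBE-/- mean, Eµ-/- was also called higher for Pgf (1.46, adjusted p = 0.0322), lost without any one CBE-/- library or Eµ-/- replicate 2 (0.0556 to 0.177), and for Gclc (0.38, adjusted p = 0.0421), lost in every such fit but the one without CBE-/- (1) replicate 1 (0.055 to 0.157). Csrp1 was higher in CBE-/- (1) than in WT by 0.75 (adjusted p = 0.00587), lost without WT replicate 2 (0.0652), and in CBE-/- (2) than in WT by 0.53 (adjusted p = 0.0238), lost without either library of CBE-/- (2) or WT (0.0681 to 0.182).

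The other zinc transporters moved in both directions. Of the 13 other Slc39 genes, whose products carry zinc into the cytosol, 9 were tested, and they ranged from 2.30 to 51.5 FPKM with Slc39a7, the importer of the endoplasmic reticulum, the highest. Of all genes tested, limma called 18.7% in CBE-/- (2) against WT, 19.4% in CBE-/- (1) against WT and 21.8% in Eµ-/- against WT. It called 12.4% in Eµ-/- against the CBE-/- mean and 10.2% between the CBE-/- lines. With the replicate block these shares were, in the same order, 28.8%, 30.0%, 34.0%, 22.2% and 16.6%. In CBE-/- (2) against WT, 3 of the 9 were higher and 2 lower, and with the replicate block 3 and 3. In CBE-/- (1) against WT it was 0 in limma (3 at an unadjusted p under 0.05), and 2 higher and 1 lower with the block. In Eµ-/- against WT 1 was higher, and with the block 1 was lower as well. In Eµ-/- against the CBE-/- mean 1 was higher and 2 lower, and between the CBE-/- lines 1 was higher and 1 lower. The medians of these 9 differences lay between -0.13 and 0.24, beside -0.01 to 0.04 over all genes tested.

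Slc39a6 (ZIP6), the closest relative of ZIP10, had 31.9 and 33.2 FPKM in Eµ-/-, 23.2 and 22.4 in CBE-/- (2), 44.96 and 42.4 in CBE-/- (1), and 35.1 and 36.1 in WT. The CBE-/- (2) libraries were the lowest and the CBE-/- (1) libraries the highest, with no overlap. Its difference was -0.62 in CBE-/- (2) against WT (adjusted p = 0.00275) and -0.91 in CBE-/- (2) against CBE-/- (1) (adjusted p = 0.00109), and both held in all 8 fits without 1 library. Slc39a14 (ZIP14), known as an inflammation-induced importer of zinc and iron, had 8.35 and 9.01 FPKM in Eµ-/-, 8.84 and 9.36 in CBE-/- (2), 6.05 and 5.43 in CBE-/- (1), and 6.24 and 5.31 in WT. Eµ-/- and CBE-/- (2) were thus above CBE-/- (1) and WT. It was called higher in CBE-/- (2) against WT (0.58, adjusted p = 0.0127), in CBE-/- (2) against CBE-/- (1) (0.58, adjusted p = 0.0207) and in Eµ-/- against WT (0.52, adjusted p = 0.0195). The first of these was lost without WT replicate 2 or either CBE-/- (2) library (0.0773 to 0.114), the second without any one CBE-/- library (0.0532 to 0.179), and the third without either WT library or Eµ-/- replicate 2 (0.0539 to 0.146). The plasma membrane importer Slc39a8 (ZIP8) was lower in CBE-/- (2) than in WT by a log2 difference of -0.80 (adjusted p = 0.00585), lost without WT replicate 1 (0.054) or CBE-/- (2) replicate 2 (0.0561). Slc39a11 was higher there by 0.75 (adjusted p = 0.0382), lost without either library of CBE-/- (2) or WT (0.145 to 0.189). In Eµ-/- against the CBE-/- mean, Slc39a8 was higher by 0.49 (adjusted p = 0.0325), Slc39a11 differed by -0.77 (adjusted p = 0.0283) and Slc39a1 by -0.39 (adjusted p = 0.0482), and these calls held in 3, 2 and 1 of the 8 fits without 1 library.

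Of the 9 other Slc30 genes, whose products move zinc out of the cytosol, 5 were tested, from 2.43 to 59.2 FPKM, and Slc30a5, which loads the secretory pathway, was the highest. The shares of all genes called are those given above beside the Slc39 counts. Slc30a4 alone was called among them, lower in Eµ-/- and in CBE-/- (1) against WT and higher in CBE-/- (2) against CBE-/- (1), and 0 of the 5 were called in CBE-/- (2) against WT or in Eµ-/- against the CBE-/- mean (0 at an unadjusted p under 0.05 in both, and 0 with the block). Slc30a4 (ZnT4), an exporter into vesicles, had 8.76 and 11.9 FPKM in Eµ-/-, 14.7 and 16.6 in CBE-/- (2), 8.65 and 9.71 in CBE-/- (1), and 16.6 and 17.4 in WT. Eµ-/- and CBE-/- (1) were low together. Its difference was -0.68 in Eµ-/- against WT (adjusted p = 0.0212), lost without WT replicate 1 (0.105) or 2 (0.129), and -0.82 in CBE-/- (1) against WT (adjusted p = 0.0107), lost without WT replicate 1 (0.0642), WT replicate 2 (0.0867) or CBE-/- (1) replicate 1 (0.0595). The difference of 0.71 between the CBE-/- lines (adjusted p = 0.0306) was lost without any one library of WT or the CBE-/- lines (0.0706 to 0.223).

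**Figure D5:**
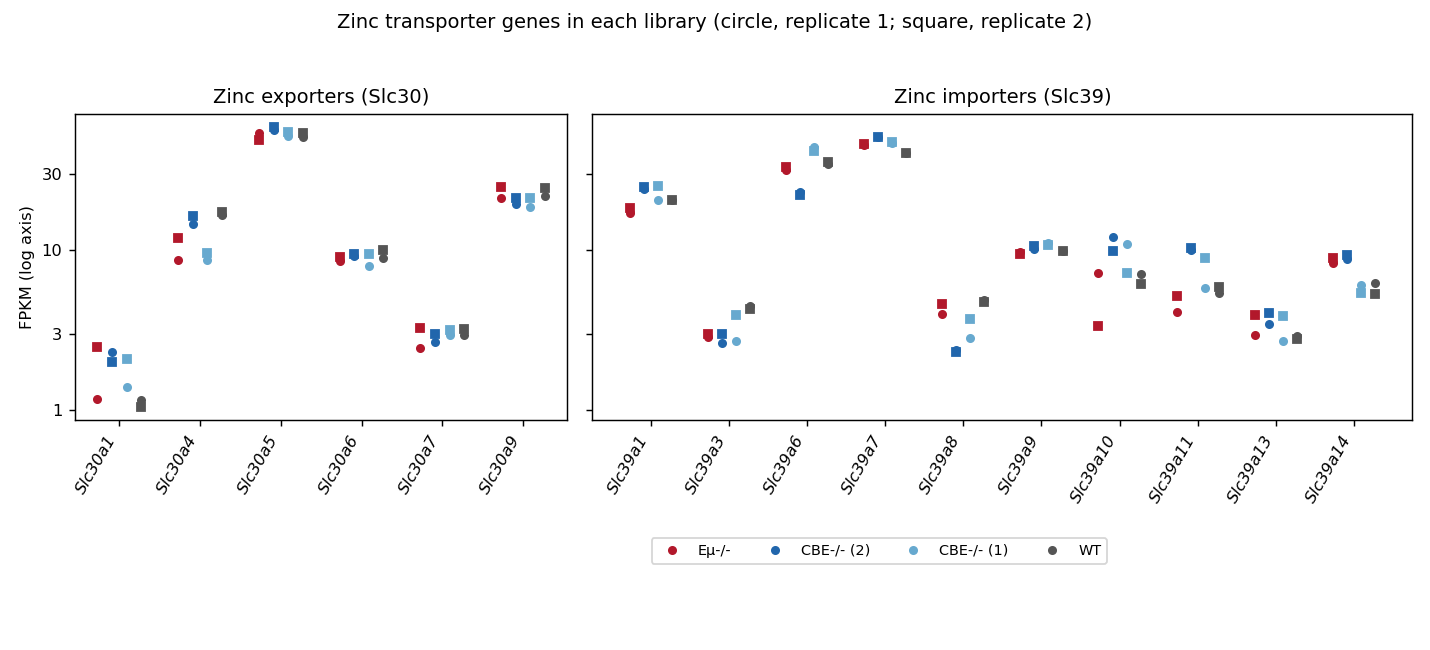
FPKM on a log axis of the tested zinc exporter and importer genes in each library (circle, replicate 1, and square, replicate 2). Slc30a1 is the lowest of the exporters drawn, at 1.05 to 2.47 FPKM, Slc39a10 lies in the middle of the importers at 3.37 to 12.2, and Slc39a6 is lowest in CBE-/- (2).

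Gene lists of other pathways known to bear on metallothioneins were read in the same way. Of 12 tested genes of the NRF2 and oxidative stress list, 0 were higher and 1 lower (Fth1) in Eµ-/- against WT. Of all genes tested, 11.3% were higher and 10.4% lower there (21.8% called, and 34.0% with the replicate block). In the same contrast 2 of 7 glucocorticoid response genes were higher (Fkbp5, Dusp1) and 1 lower (Per1), 0 of 9 copper handling genes were higher and 1 lower (Ccs), and 0 of 5 heat shock genes and 0 of 2 genes of the IL-6 and STAT3 list were called. For these last lists the count at an unadjusted p under 0.05 was 0, and with the block 0. Of the named calls in Eµ-/- against WT, Ccs held in 1 of the 8 fits without 1 library, Dusp1 in 2, Fkbp5 in 3 and Per1 in 5. With the replicate block the counts in Eµ-/- against WT were 2 higher and 2 lower for NRF2, 3 and 2 for glucocorticoid response, and 0 and 3 for copper. The median differences there were -0.06 for NRF2, 0.50 for glucocorticoid response, -0.25 for copper, -0.10 for heat shock and 0.22 for IL-6 and STAT3, beside 0.01 over all genes. In CBE-/- (1) against WT (19.4% of all genes called), Gsr, Ftl1 and Fkbp5 were called higher, and Cox17 and Per1 lower. Each of these calls was lost in at least 1 fit without 1 library, and those of Gsr, Ftl1 and Cox17 in most. In CBE-/- (2) against WT (18.7%), Hmox1, Gsr and Fkbp5 were higher and Fth1 lower. Of these calls only that of Gsr held in every fit without 1 library. In Eµ-/- against the CBE-/- mean (12.4%), Hmox1, Fth1 and Slc31a1 were lower. The Fth1 call here was lost in every fit without 1 library, and that of Slc31a1 in most. The replicate block added calls in each of these contrasts. Fkbp5 differed from WT by 0.75 in CBE-/- (1) (limma, adjusted p = 0.00597) and by 0.60 in CBE-/- (2) (0.0146).

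Between the CBE-/- lines, the contrast in which Mt1 and Mt2 were tested, 0 of the 12 NRF2 genes were higher in CBE-/- (2) and 2 lower (Fth1, Ftl1). Of all genes tested, 5.17% were higher and 5.03% lower in this contrast (10.2% called, and 16.6% with the replicate block). There 1 glucocorticoid response gene was higher (Per1), and 0 copper, heat shock or IL-6 and STAT3 genes were called, with 0 of them also at an unadjusted p under 0.05 and with the block. The Ftl1 and Per1 calls were lost in most of the fits without 1 library. With the replicate block the counts there were 0 higher and 3 lower for NRF2 (Txnrd1 added, adjusted p = 0.0174), and 1 higher and 1 lower for glucocorticoid response (Nr3c1 lower, adjusted p = 0.0101). Ferritin heavy chain, Fth1, which stores iron, had 377.1 and 398.8 FPKM in Eµ-/-, 440.0 and 434.5 in CBE-/- (2), 629.8 and 645.9 in CBE-/- (1), and 778.0 and 664.7 in WT. Its libraries stood in the reverse of the order of Mt1 over the 4 lines. The Fth1 difference of -0.89 between Eµ-/- and WT (adjusted p = 0.00234) held in all 8 fits without 1 library, and that of -0.54 between the CBE-/- lines (adjusted p = 0.0285) was lost without any one library of WT or the CBE-/- lines (0.0537 to 0.211). Gsr, glutathione reductase, was higher in CBE-/- (2) than in WT by 0.66 (adjusted p = 0.00295), also held in all 8. Heme oxygenase Hmox1, which cadmium and oxidants induce, had 0.134 and 0.0515 FPKM in Eµ-/-, 4.01 and 5.08 in CBE-/- (2), 0.887 and 3.41 in CBE-/- (1), and 0.297 and 0.252 in WT. It was thus low in Eµ-/- and in WT. Its difference was 2.11 in CBE-/- (2) against WT (adjusted p = 0.00729), lost without WT replicate 2 (0.0549) or CBE-/- (2) replicate 2 (0.0589), and -1.87 in Eµ-/- against the CBE-/- mean (adjusted p = 0.0101), lost without Eµ-/- replicate 2 (0.0738). Over the transporter, MTF1 and other pathway lists together and the 5 contrasts, 44 calls were made. Most of them were lost in at least 1 fit without 1 library. Counts of calls over all genes also fell in many such fits, and the share of all genes that held in every one was not taken.

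Genes with a pattern like the metallothioneins were ranked by Pearson correlation over the 8 libraries with the mean log2(FPKM + 1) of Mt1 and Mt2, as a description with no test. The 2537 genes ranked were those tested whose log2(FPKM + 1) spanned at least 1 over the libraries, and unnamed transcript models were passed over in naming the closest. The 8 points come in pairs from 4 lines. The closest 5 were Mical3 (r = 0.991), Car2 (0.990), Ralgps2 (0.985), Ogfrl1 (0.967) and Luzp1 (0.967). Car2, the zinc enzyme carbonic anhydrase II, had 171.1 and 180.4 FPKM in Eµ-/-, 102.5 and 105.9 in CBE-/- (2), 84.7 and 75.8 in CBE-/- (1), and 60.7 and 55.5 in WT. Unlike Mt1, Car2 was well expressed in WT. Luzp1 had 2.32 and 3.37 FPKM in Eµ-/-, 0.692 and 0.581 in CBE-/- (2), 0.0109 and 0.0128 in CBE-/- (1), and 0.00151 and 0.00236 in WT. Among the members, Mtf1 had r = 0.527 with 646 of the 2537 genes more alike, Slc30a1 had r = 0.43 with 792, and Slc39a10 had r = -0.377. Mtf1 and Slc30a1 spanned less than 1, so they were set against the ranked genes without being among them.

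The cell type labels were checked against marker genes. Of 16 pro-B markers 15 were tested and expressed in some lines, while Kit was listed at 0 in all 8 libraries. Rag1 had 5.83 and 7.53 FPKM in Eµ-/-, 8.72 and 3.77 in CBE-/- (2), 13.8 and 7.41 in CBE-/- (1), and 0.0427 and 0.0295 in WT, so this recombinase marker was nearly missing in the line where both metallothioneins were listed at 0. The 9 stromal markers stayed under 1 FPKM in every library, 3 of them at 0 throughout, with sums of 0.0112 and 0.0284 in Eµ-/-, 0.0477 and 0.0263 in CBE-/- (2), 0.00452 and 0.0128 in CBE-/- (1), and 0.0124 and 0.0118 in WT. The 6 erythroid markers summed to 0.210 to 0.388 FPKM in a library. Of 8 myeloid markers only Lyz2 and Itgam reached the filter, with a sum of 3.15 and 2.01 FPKM in Eµ-/-, 2.42 and 1.61 in CBE-/- (2), 8.86 and 3.79 in CBE-/- (1), and 6.72 and 3.29 in WT. The sum is mostly Lyz2 in Eµ-/-, CBE-/- (1) and WT. Itgam had 0.570 and 0.616 FPKM in Eµ-/-, 1.66 and 1.17 in CBE-/- (2), 1.65 and 1.23 in CBE-/- (1), and 0.293 and 0.120 in WT, and was called higher in CBE-/- (2) (1.00, adjusted p = 0.00403) and CBE-/- (1) (1.01, adjusted p = 0.0039) against WT. Lyz2 was called lower in CBE-/- (2) against WT (-1.80, adjusted p = 0.0336). Of 7 T cell markers Lck and Cd2 reached it, while Cd3e, Cd4 and Cd8a were listed at 0 in all 8. Lck had 28.0 and 17.0 FPKM in Eµ-/-, 37.4 and 32.5 in CBE-/- (2), 52.0 and 37.1 in CBE-/- (1), and 82.1 and 66.3 in WT. It was lower than in WT in Eµ-/- (-1.71, adjusted p = 0.00519) and in CBE-/- (2) (-1.06, adjusted p = 0.0333), and Cd2 was higher than in WT in CBE-/- (1) (1.04, adjusted p = 0.0462). With the replicate block, 4 further differences of these marker genes from WT were called: Lck in CBE-/- (1) (-0.74, adjusted p = 0.00748), and in Eµ-/- Lyz2 (-0.92, 0.0195), Itgam (0.40, 0.0349) and Cd2 (0.80, 0.0315). The part of these marker levels in the metallothionein differences was not tested.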

How the data were processed

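RNA from 8 libraries of 4 pro-B cell lines was sequenced as single 75-base reads from a stranded mRNA kit, per the labels' protocols. TopHat, Cufflinks and build mm9 are named in the submitters' processing notes, while versions, settings and strand handling are not stated there. Each deposited file gives FPKM per gene with an interval, per the file headers. Symbols at several loci (277) were summed, and 21 symbols with a quantification status other than OK were left out. All 5 members had status OK in every library. Reads behind a value were taken from its interval as 2 SD on each side. FPKM are not counts, so log2(FPKM + 1) was fitted with limma 3.58.1 in R 4.3.3 over all 8 libraries (4 line means, a mean-variance trend, residual df of 4 and prior df of 2.65) for the 10479 genes whose FPKM reached 1 in 2 libraries or more. P-values were adjusted by Benjamini-Hochberg over all of them, and a gene is called at 0.05 or less. The fit was tested on simulated data. A line left with 1 library was assumed to vary like the others.

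The replicate numbers come from the sample titles. The replicate 2 minus replicate 1 differences of each pair of lines correlated at r = 0.279 to 0.502 over genes, in all 6 pairs, so a fit with the replicate number as a block is given beside the members' results and the transporter, MTF1 and pathway list counts that it changes. Mt1 and Mt2 were tested only between the CBE-/- lines, and Mtf1, Slc30a1 and Slc39a10 in every contrast but Eµ-/- against WT. Called members of the zinc and MTF1 lists are named with values (the 4 largest where more were called), with every gene within 100 kb of Mt1 or Mt2. In the pathway lists genes called in the main fit are named, and values of Fth1, Gsr, Hmox1 and Fkbp5 are given, chosen after their values were seen. The members, lists and tests were chosen with earlier results of these data known. As alternatives, the fit was repeated with a pseudocount of 0.1 or 5, without the filter or with one on mean FPKM (at least 5), under quantile or median-of-ratios scaling, without the trend, on the compared libraries alone, with the block, and leaving out each library. Promoters are RefSeq windows of GRCm38.p6 matched by symbol for all 5 members. Transcript windows are from GENCODE vM21.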

Additional observations from a re-analysis of the deposited data

Results flagged for a closer look

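Mt1 and Mt2 differed between the 2 lines that carry the same IGCR1-/- label, so that their distance from WT was not the same in both. Mt1 had 15.3 and 13.8 FPKM in CBE-/- (2) and 4.17 and 5.81 in CBE-/- (1), a difference of 1.39 in log2(FPKM + 1) with an adjusted p of 0.00204 in limma. Mt2 had 1.91 and 3.19 FPKM in CBE-/- (2) and 0.2996 and 0.5313 in CBE-/- (1), a difference of 1.31 with an adjusted p of 0.00936. Both libraries of CBE-/- (2) were above both of CBE-/- (1) for each gene. The spread behind these p-values took in the WT zeros and Eµ-/- values that chose the genes.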

How the results depend on the processing

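The Mt1 difference between the CBE-/- lines was called under all 17 alternatives (adjusted p of 0.00146 to 0.0312). That of Mt2 was called under 14 (0.00199 to 0.0643) and lost with a pseudocount of 5 (0.47, adjusted p = 0.0587) and without CBE-/- (1) replicate 1 or CBE-/- (2) replicate 2. Mtf1 in CBE-/- (2) against WT turned to -0.0312 under quantile scaling (adjusted p = 0.876). Slc30a1 in Eµ-/- against the CBE-/- mean ran from -0.43 to 0.24, and Slc39a10 between the CBE-/- lines from -0.0005 to 0.54, with 1 library left out. With only the libraries compared, Slc30a1 and Slc39a10 passed in CBE-/- (2) against WT (0.00724 and 0.0142). The paired fit, with a replicate block, changed no other call of a member than the 2 of Slc39a10 given above. A mean FPKM of 5 or more removed Mtf1 and Slc30a1. Among values with no test, Mt2 in Eµ-/- against the CBE-/- mean (4.34) was 2.94 with a pseudocount of 5 and 5.27 with 0.1, Mt1 there (3.78) was 3.29 with 5, and library choice moved Slc39a10 in Eµ-/- against WT (-0.80 without Eµ-/- replicate 1, 0.12 without replicate 2) and Slc30a1 there (0.73 and 0.05).

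Counts of all genes called moved by over 1.5 times as follows, in the order Eµ-/- against WT, CBE-/- (2) against WT, CBE-/- (1) against WT, CBE-/- (2) against CBE-/- (1), and Eµ-/- against the CBE-/- mean, where 2284, 1960, 2033, 1069 and 1301 genes were called. With a mean FPKM of 5 or more the counts were 1304, 1023, 1056, 369 and 535, from fewer genes tested. With the replicate block they were 3563, 3013, 3142, 1736 and 2331. With only the libraries compared they were 1329 for Eµ-/- against WT, 3577 for CBE-/- (2) against WT and 851 for Eµ-/- against the CBE-/- mean. With 1 library left out they ran from 784 to 3260, 837 to 2524, 784 to 2610, 259 to 1373, and 610 to 2273. Without WT replicate 1 they were 885, 933, 929, 696 and 857, and without WT replicate 2 they were 784, 872, 784, 690 and 858. Without CBE-/- (2) replicate 1 the counts for Eµ-/- against WT, CBE-/- (2) against WT, CBE-/- (2) against CBE-/- (1) and Eµ-/- against the CBE-/- mean were 1522, 841, 289 and 618, and without replicate 2 they were 1521, 837, 259 and 610. Without CBE-/- (1) replicate 1, CBE-/- (1) against WT gave 1321 and CBE-/- (2) against CBE-/- (1) gave 596. Eµ-/- against the CBE-/- mean gave 2273 without Eµ-/- replicate 1 and 738 without replicate 2, and Eµ-/- against WT gave 1494 without replicate 2. The cause of these moves was not tested. The promoter share with a metal response element core was 25.7% on both strands and 14.8% on the strand of the gene alone. Mt2 in CBE-/- (1) rested on about 8 and 9.6 reads, and its depth limits the Mt1 to Mt2 ratio there.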
